A study of Mus musculus with 15 samples.

Results

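The 34 genes described here mark the macrophages of the liver, both the resident Kupffer cells and the cells recruited from blood. They were picked by gene symbol for what is known of these cells, with earlier results of these data already known. All 34 were found among the 18510 rows of the deposited expression table. Messenger RNA had been measured by RNA sequencing in whole livers of 15 wild-type (WT) mice, 5 in each of 3 groups. The Ctrl mice received a control diet, the Alc mice an alcohol diet, and the Alc UA mice UA on top of the alcohol diet. The labels do not spell out UA. They also leave out strain, age, length of feeding and time of collection. Levels are FPKM, fragments scaled for transcript length and for the fragments mapped in a library. Groups are compared on log2(FPKM + 1), with the SE after ±, and low genes change by less on this scale than their ratio of FPKM would show.

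Kupffer cells line the sinusoids of the liver and clear bacteria, old red cells and debris from portal blood. They live on signals through the Csf1 receptor and take their identity from neighbouring endothelial and stellate cells. When they are lost, monocytes enter from blood and take their place, and in fat-laden livers some of these cells turn on a lipid-handling program. In livers exposed to alcohol they are best known as the cells that sense bacterial lipopolysaccharide from the gut.

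The labelled tissue and the cell type were both seen in the data. Albumin mRNA (Alb) averaged 27562 FPKM in Ctrl, and the Kupffer cell genes Clec4f and Vsig4 stood at 10.7 to 44.0 and 3.86 to 22.3 FPKM over the 15 libraries. Over all libraries Lyz2 (56.3 FPKM), Cd5l (54.9), Id3 (52.0), C1qc (37.6) and C1qb (37.3) had the highest means of the 34, and Itgam (0.530 FPKM) the lowest. A test was run on the 31 genes that reached 1 FPKM in 5 or more of the 15 libraries. Itgam, Cx3cr1 and Gpnmb did not reach this level. In whole tissue, fewer macrophages and less RNA per macrophage cannot be told apart.

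Promoter sequence is shown for C1qb and C1qc, whose levels kept close to each other in each library, and for Spic and Id3. Spic had the largest ratio of highest to lowest FPKM over the 15 libraries (243, from a lowest value of 0.13 in Ctrl 5). Among the 31 genes tested, Id3 had the largest difference between groups in log2(FPKM + 1). Each run is the 250 bases before the transcription start in the RefSeq annotation of GRCm38.p6, written 5′ to 3′ on the strand of the gene. Capitals mark AGGAAGT or its reverse complement ACTTCCT, a core motif of the macrophage factor encoded by Spi1. The C1qb window is chr4:136886201-136886450 (minus strand), the C1qc window chr4:136892915-136893164 (minus strand), the Spic window chr10:88683024-88683273 (minus strand) and the Id3 window chr4:136143572-136143821 (plus strand).
C1qb: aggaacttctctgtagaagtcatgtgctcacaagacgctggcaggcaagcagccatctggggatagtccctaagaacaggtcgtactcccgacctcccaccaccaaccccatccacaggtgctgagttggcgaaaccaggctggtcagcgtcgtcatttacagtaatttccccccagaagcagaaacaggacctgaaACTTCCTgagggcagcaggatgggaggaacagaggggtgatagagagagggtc
C1qc: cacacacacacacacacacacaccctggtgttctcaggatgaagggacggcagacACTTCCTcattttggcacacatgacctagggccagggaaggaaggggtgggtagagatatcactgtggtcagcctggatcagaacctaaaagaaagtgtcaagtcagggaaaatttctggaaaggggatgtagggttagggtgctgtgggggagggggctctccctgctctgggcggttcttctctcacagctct
Spic: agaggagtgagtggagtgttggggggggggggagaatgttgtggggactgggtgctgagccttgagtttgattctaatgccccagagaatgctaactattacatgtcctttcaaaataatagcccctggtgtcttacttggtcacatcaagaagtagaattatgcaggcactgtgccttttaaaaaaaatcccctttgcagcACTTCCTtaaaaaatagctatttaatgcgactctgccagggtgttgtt
Id3: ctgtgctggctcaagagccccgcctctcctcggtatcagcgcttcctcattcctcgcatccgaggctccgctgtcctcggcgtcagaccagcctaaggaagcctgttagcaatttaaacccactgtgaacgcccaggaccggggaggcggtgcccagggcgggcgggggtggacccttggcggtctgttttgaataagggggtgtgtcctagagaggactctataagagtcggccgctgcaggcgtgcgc
The marked letters begin 53 bases before the start in C1qb, 195 in C1qc and 48 in Spic, and the Id3 window holds none. Of the 34 genes, 27 had an entry in the promoter table, with 29 windows in all. AGGAAGT on either strand was present in 6 of these 29 windows (20.7%), those of C1qb, C1qc, Fcgr1, Folr2, Lyz2 and Spic, and in 7.69% of all 32851 windows of the same length. The longer form GAGGAAGT, which contains the first, was present in the C1qc window and in 2.44% of all windows. A match is a description of letters and not evidence of binding.

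Single libraries stood apart from their groups in these genes, and this bears on every comparison. Of the 34 genes, 16 had their highest level of all 15 libraries in Ctrl 1 and 12 in Alc UA 3, while 26 had their lowest in Ctrl 5. Ctrl 1 lay above the other 4 controls for 31 genes, with a median ratio of 3.17 to their mean, and Ctrl 5 lay below the other 4 for 32 genes, with a median ratio of 0.257. Each library was summarised by the median over the 34 genes of its log2(FPKM + 1) minus the gene's own median. This summary ran from -1.13 (Ctrl 5) to 1.10 (Ctrl 1) in Ctrl, from -0.28 to 0.46 in Alc and from -0.07 to 0.69 (Alc UA 3) in Alc UA. The spread within Ctrl was thus wider than in either alcohol group, and the 3 groups overlapped. Other cells moved with these libraries: the summed level of 15 sinusoidal endothelial markers was highest in Ctrl 1 (536 FPKM) and, among controls, lowest in Ctrl 5 (186 FPKM), and that of 10 monocyte markers was 59.7 and 9.15 FPKM there. The part of this in the macrophage genes was not tested.

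**Figure D1:**
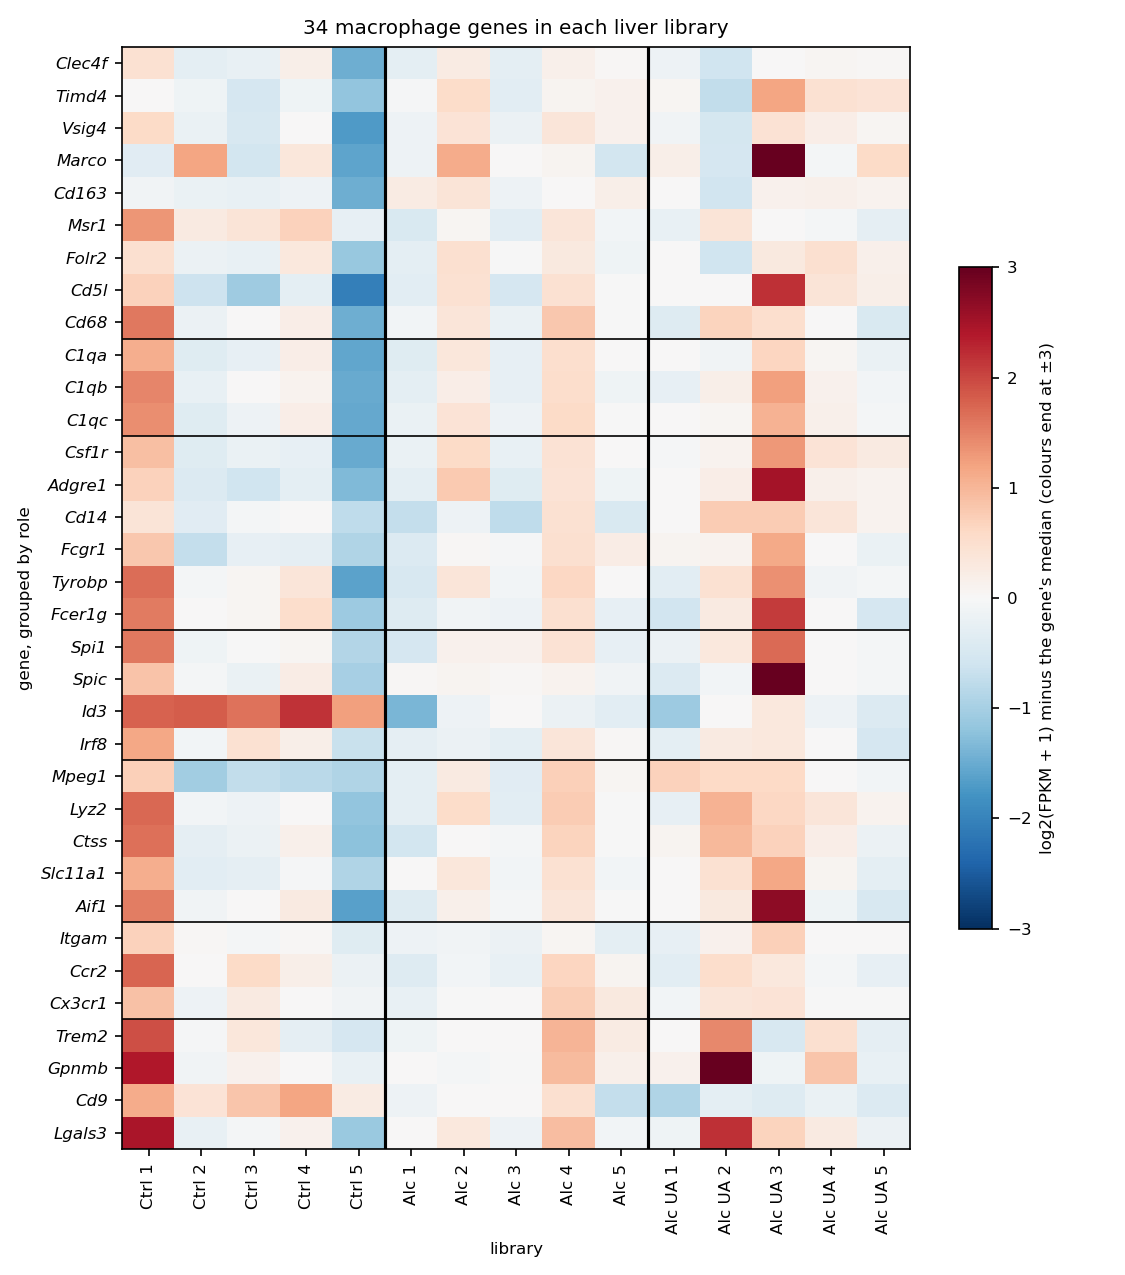
Level of each of the 34 genes (rows, grouped by role) in each of the 15 libraries (columns), as log2(FPKM + 1) minus the gene's median over the 15 libraries. Red is above and blue below that median, and colours end at ±3, which Marco and Spic in Alc UA 3 and Gpnmb in Alc UA 2 exceed. Ctrl 1 and Alc UA 3 stand out as red columns, Ctrl 5 as a blue one, and Id3 as the row that separates Ctrl from the other groups.

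Alc was set against Ctrl to find macrophage transcripts that differed on the alcohol diet. Of the 31 genes tested, 0 rose and 2 fell, Id3 and Cd9 (limma, Benjamini-Hochberg adjusted p under 0.05 over all 10959 genes tested). That is 6.45%, against 33.3% of all genes called. Groups of libraries did not overlap for 1 of the 31, Id3, against 15.8% of all genes (6.18% higher in Alc and 9.61% lower). The median difference of the 31 genes was 0.08, and that of all genes tested was -0.12. Without Ctrl 5 the median of the 31 fell below 0, to -0.23, and without Alc 4 it was -0.02. Quantile normalization moved the median of all genes to -0.0019 and the split of calls from 1157 higher and 2497 lower to 2049 and 2024. Cd163 and Mpeg1 then passed too, both higher, for 4 of 31 genes.

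Adding UA to the alcohol diet is addressed by Alc UA against Alc. Of the 31 genes 0 passed in limma, against 0.00912% of all genes, which is 1 gene of 10959. At an unadjusted p under 0.05 there were 664 genes in all and 1 of the 31, Cd14. The median difference of the 31 was 0.18, and it was -0.06 without Alc UA 3, against -0.05 for all genes. Groups did not overlap for 0 of the 31 and for 1.18% of all genes.

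In Alc UA against Ctrl, 4 of 31 genes changed (12.9%, against 42.6% of all genes). Cd5l and Mpeg1 rose, where 10.5% of all genes did, and Id3 and Cd9 fell, where 32.1% did. Id3 and Cd9 were also the 2 genes of the 31 whose groups did not overlap, against 20.2% of all genes (5.48% higher and 14.7% lower). The median of the 31 was 0.32, against -0.16 for all genes, and it was 0.12 without Alc UA 3, -0.01 without Ctrl 5 and -0.12 without both. The count of genes called was 8 without Ctrl 1, when Csf1r, Adgre1, Cd14 and Fcgr1 were added, all higher, and 2 without Ctrl 2. After quantile normalization it was 10, with Timd4, Cd163, Csf1r, Adgre1, Cd14 and Fcgr1 added, all higher, and the split over all genes went from 1152 higher and 3521 lower to 2420 and 2430. The 3 comparisons share libraries, so their values for a gene are not independent.

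**Figure D2:**
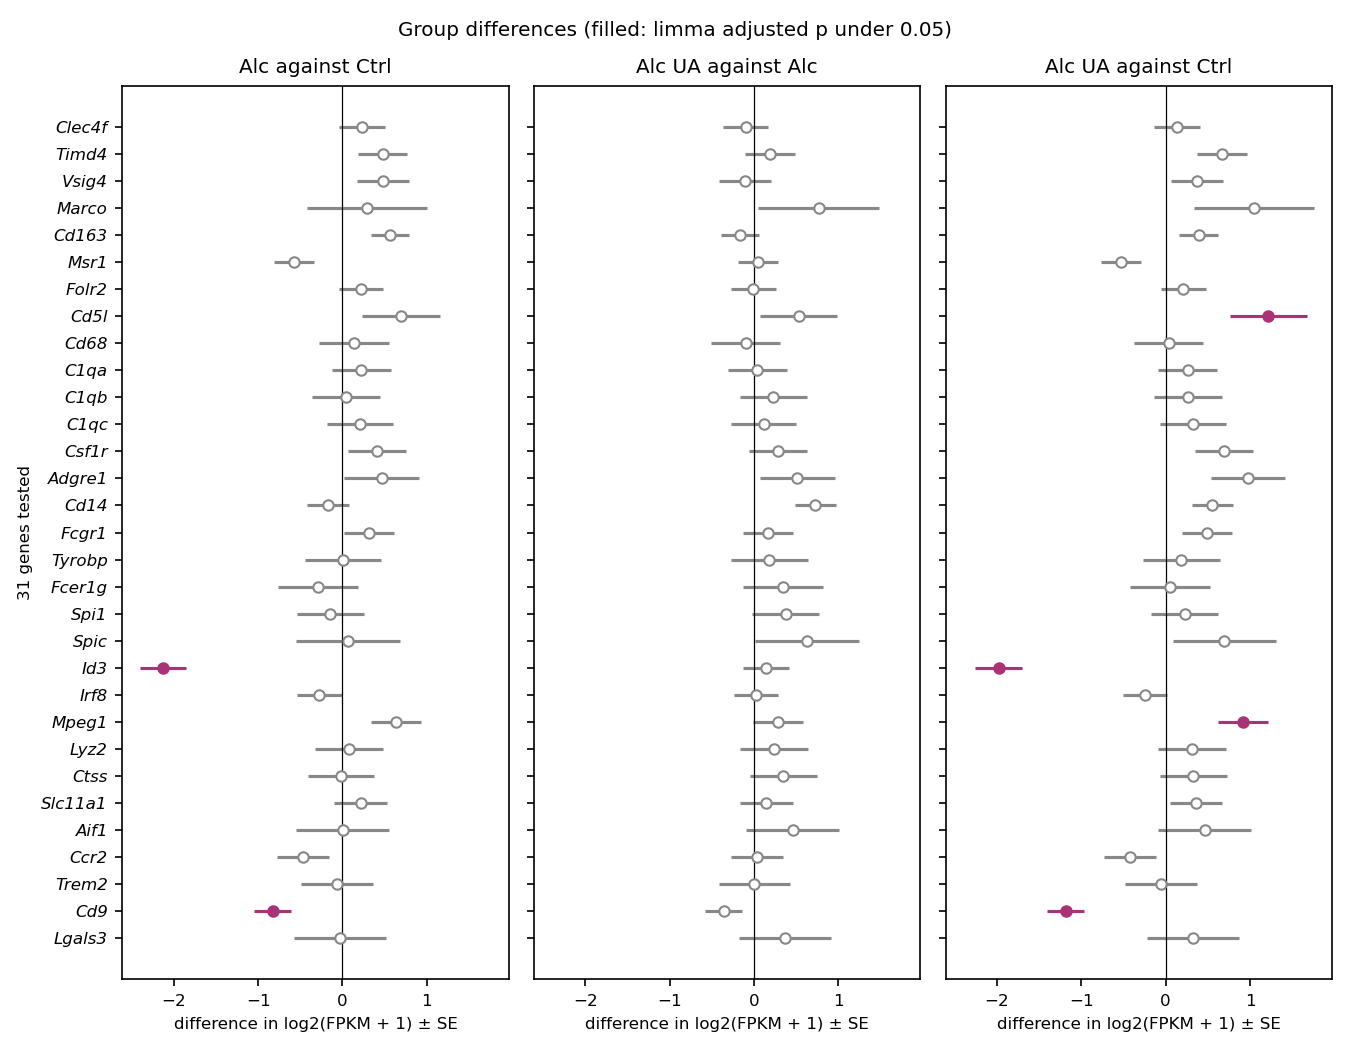
Difference in log2(FPKM + 1) between groups for the 31 genes tested, with 1 panel for each comparison. Points are limma estimates and bars ± 1 SE over 5 libraries per group, and filled points passed an adjusted p of 0.05. Id3 and Cd9 lie left of 0 in both comparisons with Ctrl, Cd5l and Mpeg1 pass on the right in Alc UA against Ctrl, and no point is filled in Alc UA against Alc.

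Among the 4 transcription factors, Id3 was the gene that changed. Id3 encodes a helix-loop-helix protein that cannot bind DNA itself and holds back its partners; Kupffer cells need it for their identity, and endothelial and other liver cells make it too. Its level in Ctrl 1 to 5 was 106, 110.2, 96.7, 140.5 and 72.5 FPKM. In Alc 1 to 5 it was 11.1, 27.4, 30.55, 26.8 and 24.4, and in Alc UA 1 to 5 it was 13.8, 30.8, 38.5, 27.6 and 22.8. Every control lay above every library of both alcohol groups, Ctrl 5 included, and the lowest of each alcohol group was its replicate 1. The mean fell 4.37-fold from 105 ± 24.6 in Ctrl to 24.1 ± 7.57 in Alc (SD, n = 5), a difference of -2.12 ± 0.27 (limma adjusted p = 1.2e-04). In Alc UA it was 26.7 ± 9.22, or -1.98 ± 0.27 from Ctrl (limma adjusted p = 1.2e-04) and 0.14 ± 0.27 from Alc (limma adjusted p = 0.94, 95% interval -0.44 to 0.73). Both calls against Ctrl held in each of 9 other settings of the analysis and in each of 15 fits that left out 1 library, where the difference in Alc ran from -2.25 to -1.88.

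Markers of sinusoidal endothelial cells, which also make Id3, fell in the same comparisons. Of the 15 sinusoidal endothelial markers, 14 fell in Alc against Ctrl and 15 in Alc UA against Ctrl, with medians of -1.30 and -1.72, and none of them was at 0 in any group. Of all genes, 22.8% and 32.1% fell, and the medians were -0.12 and -0.16. Their summed level ran from 186 to 536 FPKM in Ctrl, from 80.3 to 186 in Alc and from 86.6 to 112 in Alc UA. Id1, a close relative of Id3 and like it a target of bone morphogenetic protein signals, fell as well in Alc (-0.73 ± 0.27, limma adjusted p = 0.048). Id1 differed by -0.53 ± 0.27 in Alc UA against Ctrl and did not pass (limma adjusted p = 0.12). The part of endothelial cells in the Id3 and Id1 levels was not tested.

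**Figure D3:**
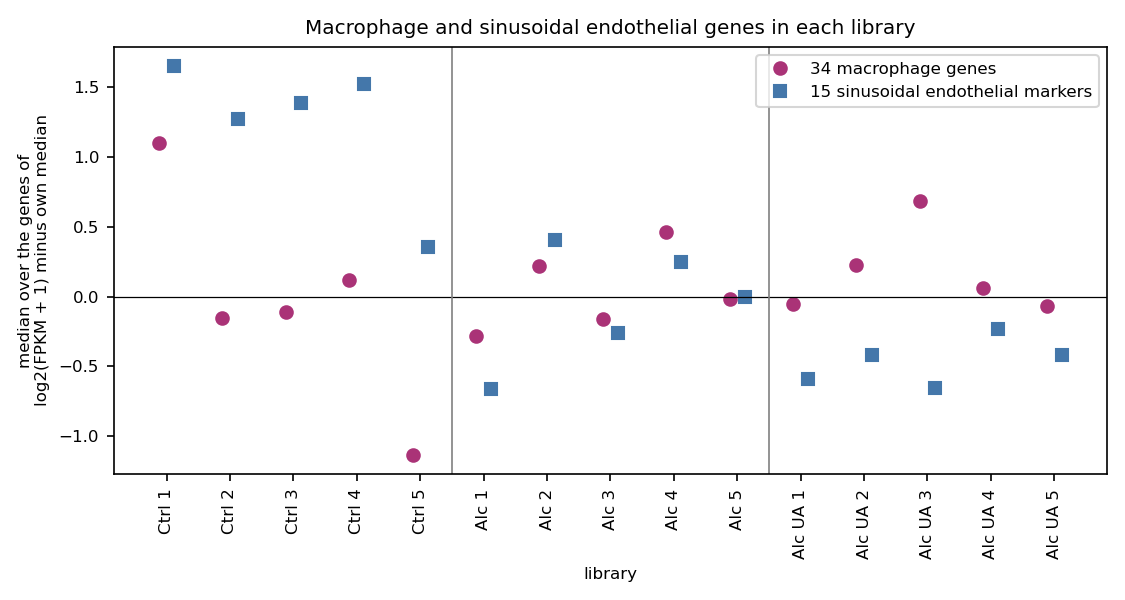
Each library's median over the 34 macrophage genes (circles) and over 15 sinusoidal endothelial markers (squares) of log2(FPKM + 1) minus the gene's own median, with libraries on the x axis in their groups. Circles of the 3 groups overlap, from -1.13 in Ctrl 5 to 1.10 in Ctrl 1, while squares of 4 controls lie above those of all Alc and Alc UA libraries.

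The other 3 transcription factors did not pass in any of the 3 comparisons. Spi1, the master regulator of myeloid cells, averaged 5.06 ± 4.5 FPKM in Ctrl, 3.73 ± 1.15 in Alc and 5.84 ± 4.64 in Alc UA. Irf8, needed for monocyte and macrophage development, averaged 4.23 ± 2.52, 3.02 ± 0.801 and 3.13 ± 0.975. Spic, which macrophages that recycle red cells turn on when heme builds up, had an SE of 0.61 in every comparison because of 1 library, described further on. For Spi1 the highest control was Ctrl 1 at 12.9 FPKM, more than 3 times the next control at 3.89. The other controls also overlapped both alcohol groups, whose lowest levels were 2.31 FPKM in Alc and 3.15 in Alc UA.

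Scavenger and recognition receptors, the 9 genes by which macrophages bind bacteria, lipids and dying cells, showed 1 call in the 3 comparisons. In Alc against Ctrl none of the 9 passed, with a median difference of 0.29, and in Alc UA against Ctrl Cd5l passed. Clec4f, a lectin that in mice is made by Kupffer cells alone, stood at 44.0, 25.45, 26.9, 36.0 and 10.7 FPKM in Ctrl, 25.6, 37.6, 25.4, 34.9 and 32.1 in Alc, and 28.2, 20.4, 31.5, 32.9 and 32.15 in Alc UA. Both alcohol groups fell within the range of the controls. Its difference was 0.23 ± 0.27 in Alc (95% interval -0.34 to 0.81) and 0.13 ± 0.27 in Alc UA (-0.44 to 0.71), so a change of either sign within these bounds remains possible. Vsig4, a receptor for complement-coated bacteria, averaged 12.8 ± 6.71, 16.3 ± 3.26 and 15.2 ± 3.80 FPKM in Ctrl, Alc and Alc UA. Folr2, a folate receptor of resident macrophages, averaged 6.07 ± 2.71, 6.82 ± 1.72 and 6.86 ± 1.97 FPKM, and Cd68, a lysosomal glycoprotein, 9.72 ± 8.45, 8.74 ± 3.05 and 8.23 ± 3.27.

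Timd4, the phosphatidylserine receptor of long-lived Kupffer cells, stood at 2.57, 2.25, 1.5, 2.26 and 0.56 FPKM in Ctrl. Its levels were 2.48, 4.24, 1.87, 2.77 and 2.88 in Alc and 2.72, 1.14, 7.12, 3.87 and 3.72 in Alc UA. The groups overlapped, and neither difference from Ctrl passed (0.48 ± 0.30 in Alc and 0.67 ± 0.30 in Alc UA, limma adjusted p = 0.22 and 0.080). In 15 fits that left out 1 library, the Alc UA difference ran from 0.44 to 0.92, with limma adjusted p up to 0.20. It passed in 1 of these, the fit without Alc UA 2, the lowest of its group (0.92, limma adjusted p = 0.013).

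Cd5l encodes a secreted protein of macrophages, also known as apoptosis inhibitor of macrophages. It was measured at 73.7, 29.1, 21.1, 37.0 and 10.3 FPKM in Ctrl, 36.4, 62.6, 31.9, 63.4 and 45.5 in Alc, and 45.8, 45.55, 210.4, 59.4 and 51.3 in Alc UA. Alc UA 3 lay far above all others, while Ctrl 1 lay above 4 of the 5 Alc UA libraries. The mean was 34.3 ± 24.2 in Ctrl and 82.5 ± 71.7 in Alc UA, a difference of 1.22 ± 0.46 (limma adjusted p = 0.044). Against Alc, at 48.0 ± 14.6, it was 0.53 ± 0.46 (limma adjusted p = 0.89). The call against Ctrl was near the threshold and changed with the libraries used. Without Alc UA 3 the difference was 0.81 (limma adjusted p = 0.10) and without Ctrl 5 it was 0.87 (0.10). It was also lost without Alc UA 4, Alc UA 5, Alc 2, Alc 5, Ctrl 2, Ctrl 3 or Ctrl 4, at adjusted p from 0.051 to 0.091, and it was larger without Ctrl 1 (1.56, limma adjusted p = 0.012). It passed in 5 of 9 other settings. In a fit without Ctrl 1, Ctrl 5 and Alc UA 3, chosen after seeing the data, Cd5l passed (0.80, limma adjusted p = 0.0155). In a fit without Ctrl 5 and Alc UA 3 it did not (0.47, limma adjusted p = 0.22).

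Msr1 and Cd163 differed in opposite directions without passing. Msr1, the class A scavenger receptor that takes up modified lipoproteins, was 10.1, 4.37, 4.83, 6.20 and 2.75 FPKM in Ctrl, 2.23, 3.64, 2.57, 4.74 and 3.19 in Alc, and 2.77, 4.77, 3.43, 3.27 and 2.67 in Alc UA. Ctrl 1, Ctrl 3 and Ctrl 4 lay above all 10 alcohol libraries, and Ctrl 2 and Ctrl 5 lay among them. Its difference was -0.57 ± 0.23 in Alc and -0.53 ± 0.23 in Alc UA (limma adjusted p = 0.070 and 0.080). Without Ctrl 5 both passed, at -0.76 and -0.71 (limma adjusted p = 0.011 and 0.013), and without Alc 4 the first did (-0.69, limma adjusted p = 0.041). Msr1 did not pass in the rest of the 15 fits that left out 1 library. There its difference shrank to as little as -0.36 in Alc and -0.32 in Alc UA (limma adjusted p up to 0.18 and 0.22). Cd163, which clears haemoglobin bound to haptoglobin, was 3.13, 2.90, 2.84, 3.05 and 0.63 FPKM in Ctrl, 4.26, 4.85, 3.05, 3.47 and 4.09 in Alc, and 3.53, 1.99, 3.86, 3.97 and 3.83 in Alc UA. The 4 controls other than Ctrl 5 lay within 2.84 to 3.13 FPKM, at or below the Alc libraries but for Ctrl 1. The difference in Alc was 0.56 ± 0.23 (limma adjusted p = 0.069), and it was 0.30 without Ctrl 5.

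**Figure D4:**
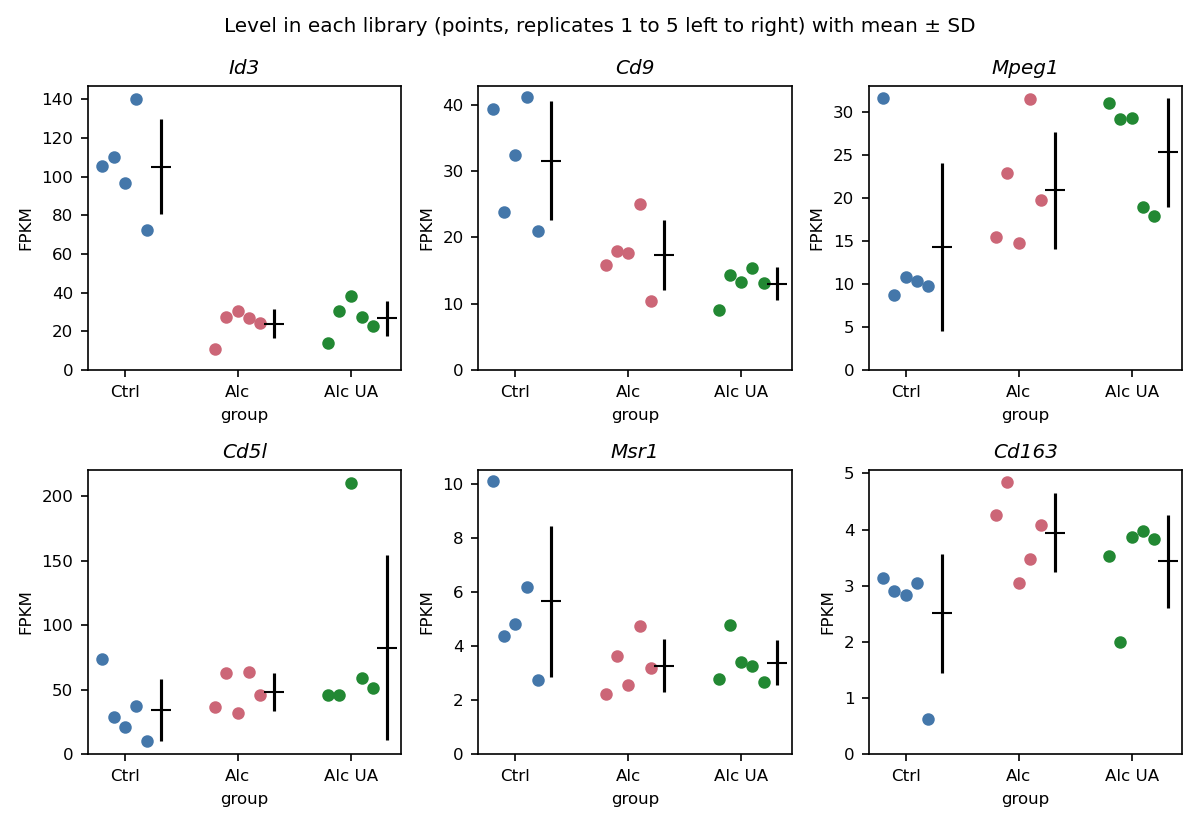
FPKM of Id3, Cd9, Mpeg1, Cd5l, Msr1 and Cd163 in each library (points, replicates 1 to 5 from left to right within a group), with the group mean (horizontal tick) and ± 1 SD (vertical bar, n = 5). Id3 separates Ctrl from both alcohol groups, at 72.5 FPKM or more against 38.5 or less, and the Cd5l mean of Alc UA is drawn up by Alc UA 3 at 210.4 FPKM.

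The 3 chains of C1q, the recognition molecule of classical complement that macrophages supply in the liver, gave nearly the same level in each library. C1qa, the A chain, was 70.0, 24.8, 27.0, 37.4 and 10.4 FPKM in Ctrl, 24.75, 41.0, 27.05, 46.65 and 32.6 in Alc, and 32.4, 30.0, 51.5, 33.6 and 28.3 in Alc UA. The highest and the lowest of the 15 were both controls. The ratio of C1qb to C1qa within a library ran from 0.827 to 1.46 with a median of 1.04, and that of C1qc to C1qa from 0.968 to 1.30 with a median of 1.05. None of the 3 passed in any comparison. C1qa differed by 0.22 ± 0.35 in Alc and 0.26 ± 0.35 in Alc UA from Ctrl, with 95% intervals of -0.52 to 0.96 and -0.48 to 1.0.

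Their partners in classical complement, an inhibitor among them, are made mostly by hepatocytes, and 4 of these 8 genes rose in each comparison with Ctrl while 0 fell. Of all genes, 10.6% rose in Alc and 10.5% in Alc UA. In Alc they were C2 (0.61 ± 0.10, limma adjusted p = 5.8e-04), C4b (0.57 ± 0.16), C3 (0.45 ± 0.13) and C1s1 (0.33 ± 0.10). In Alc UA they were C2 (0.68 ± 0.10), C4b (0.70 ± 0.16), C3 (0.49 ± 0.13) and the C1 inhibitor Serping1 (0.38 ± 0.12). Medians of the 8 were 0.24 and 0.43, against -0.12 and -0.16 for all genes tested.

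Surface receptors and adaptors through which macrophages receive survival and danger signals did not pass in any of the 3 comparisons. Csf1r, the receptor for the survival factors Csf1 and Il34, averaged 9.18 ± 6.04 FPKM in Ctrl, 11.1 ± 3.14 in Alc and 14.2 ± 6.55 in Alc UA. Adgre1, the classical surface marker of mouse macrophages, was 6.58, 2.57, 2.13, 2.85 and 0.88 FPKM in Ctrl, 2.83, 7.11, 2.66, 5.26 and 3.30 in Alc, and 3.72, 4.38, 25.4, 4.28 and 4.11 in Alc UA. Ctrl 1 lay above 4 of the 5 Alc UA libraries, and Alc UA 3 above all others. Its difference in Alc UA against Ctrl was 0.98 ± 0.44 (limma adjusted p = 0.086). Tyrobp and Fcer1g, adaptors that carry the activating motif for Trem2 and for Fc receptors, averaged 23.7 ± 19.6 and 16.1 ± 11.6 FPKM in Ctrl, 19.0 ± 5.88 and 11.0 ± 3.10 in Alc, and 23.2 ± 13.2 and 18.4 ± 18.8 in Alc UA. Fcgr1, the high-affinity IgG receptor, was low, at 1.25 ± 1.19, 1.61 ± 0.579 and 2.05 ± 1.35 FPKM.

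Cd14, the co-receptor for lipopolysaccharide, had the smallest p of the 31 genes in Alc UA against Alc. It was 4.19, 2.12, 2.83, 2.97 and 1.35 FPKM in Ctrl, 1.42, 2.58, 1.34, 4.46 and 1.88 in Alc, and 3.01, 5.74, 5.71, 4.12 and 3.26 in Alc UA. Every Alc UA library lay above 4 of the 5 Alc libraries, and Alc 4 at 4.46 lay among them. The difference of 0.73 ± 0.25 between Alc UA and Alc had a limma adjusted p of 0.70. Against Ctrl the Alc UA difference was 0.55 ± 0.25 (limma adjusted p = 0.079). It passed in 2 of 15 fits that left out 1 library, without Ctrl 1 (0.69, limma adjusted p = 0.040) and without Alc 4 (0.55, 0.044). In the rest it was as low as 0.40, with limma adjusted p up to 0.18. Of the 9 tested partners of Cd14 in lipopolysaccharide sensing, 0 rose and 1 fell in each comparison with Ctrl, where 22.8% and 32.1% of all genes fell. It was Ly96, which presents lipopolysaccharide to the receptor Tlr4. Ly96 differed by -0.65 ± 0.24 in Alc and -0.74 ± 0.24 in Alc UA. Tlr4 itself was below the level for a test.

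Beyond Fcgr1, Tyrobp and Fcer1g, 16 of 18 listed genes of Fc receptor and activating-motif signalling were tested, and 1 fell in each comparison with Ctrl, a smaller share than that of all genes. It was Fcgr2b, the inhibitory IgG receptor, at -1.60 ± 0.28 in Alc (limma adjusted p = 8.8e-04) and -2.05 ± 0.28 in Alc UA (limma adjusted p = 1.1e-04). In liver Fcgr2b is made in large part by sinusoidal endothelial cells, and it is 1 of the 15 endothelial markers above. The other 15 of the list, Coro1a (-0.91 ± 0.43) and Ptprc (-0.56 ± 0.35) among them, did not pass in Alc.

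Among the 5 lysosomal, phagosomal and cytoskeletal effectors, Mpeg1 rose in Alc UA against Ctrl. It encodes perforin-2, which forms pores in bacteria taken up by macrophages. Mpeg1 was 31.6, 8.72, 10.9, 10.3 and 9.71 FPKM in Ctrl, 15.4, 22.9, 14.75, 31.5 and 19.7 in Alc, and 31.1, 29.1, 29.3, 18.9 and 17.9 in Alc UA. All 10 libraries of the alcohol groups lay above 4 of the 5 controls, and Ctrl 1 lay above all 10. The mean was 14.2 ± 9.75 in Ctrl, 20.9 ± 6.81 in Alc and 25.3 ± 6.30 in Alc UA. The difference from Ctrl was 0.92 ± 0.30 in Alc UA (limma adjusted p = 0.021) and 0.64 ± 0.30 in Alc (limma adjusted p = 0.11). Without Ctrl 1 both passed, at 1.24 and 0.95 (limma adjusted p = 7.4e-04 and 0.0048). Without Ctrl 2 or Alc UA 1 the first did not (0.80 and 0.84, limma adjusted p = 0.056 and 0.053).

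The other 4 effectors did not pass in any comparison. Lyz2, lysozyme, was 148, 41.55, 39.3, 43.7 and 18.7 FPKM in Ctrl, 35.7, 64.5, 35.1, 75.5 and 43.2 in Alc, and 36.4, 91.8, 67.4, 56.95 and 46.9 in Alc UA. Ctrl 1 held more than 3 times as much as any other control, and the groups overlapped. Ctss, a protease that trims antigens, averaged 35.0 ± 30.1, 28.4 ± 9.20 and 36.7 ± 12.5 FPKM in Ctrl, Alc and Alc UA, and Slc11a1, which pumps metal ions out of phagosomes, 3.05 ± 2.38, 3.25 ± 0.748 and 3.96 ± 2.14. Aif1, an actin-binding protein of macrophages, averaged 8.02 ± 6.84, 6.28 ± 1.33 and 13.6 ± 17.3 FPKM. Of 22 other genes of the phagocyte oxidase and the lysosome, 3 rose and 1 fell in Alc against Ctrl, where 10.6% of all genes rose and 22.8% fell. Npc1, which exports cholesterol from lysosomes (0.48 ± 0.12), Lamp1 (0.36 ± 0.13) and Hexa (0.47 ± 0.17) rose, and Grn, the progranulin gene, fell by 0.48 ± 0.15. In Alc UA against Ctrl Npc1 alone passed (0.57 ± 0.12, limma adjusted p = 0.0021).

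Receptors that bring monocytes into tissue had low levels in most libraries. Ccr2, which answers to Ccl2, was 4.61, 0.66, 1.49, 0.89 and 0.47 FPKM in Ctrl, 0.27, 0.56, 0.43, 1.59 and 0.77 in Alc, and 0.33, 1.41, 1.08, 0.59 and 0.41 in Alc UA. It was highest in Ctrl 1 and next in Alc 4, and the groups overlapped (-0.46 ± 0.31 in Alc and -0.42 ± 0.31 in Alc UA against Ctrl, limma adjusted p = 0.26 and 0.28). The integrin chain Itgam lay between 0.15 and 1.42 FPKM in all 15 libraries and the fractalkine receptor Cx3cr1 between 0.17 and 1.51, and neither was tested. Of 10 monocyte markers 4 were expressed enough for a test, and 0 rose or fell in either comparison with Ctrl. Of all genes, 33.3% and 42.6% were called there. Of 13 neutrophil markers 4 were tested, and 1, S100a8, fell in Alc (-1.13 ± 0.39, limma adjusted p = 0.034). That is near the 22.8% of all genes that fell. The summed neutrophil level was 54.5 FPKM in Ctrl 1 and 7.96 to 22.4 in the other controls.

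Lipid-associated macrophage genes split into Cd9 and the other 3. Cd9, a tetraspanin that many liver cell types make, was 39.35, 23.9, 32.4, 41.2 and 21.0 FPKM in Ctrl, 15.9, 18.0, 17.7, 25.1 and 10.4 in Alc, and 9.02, 14.4, 13.3, 15.4 and 13.1 in Alc UA. Every control lay above every Alc UA library, and Alc 4 was the 1 Alc library that reached into the range of the controls. The mean fell from 31.6 ± 9.0 in Ctrl to 17.4 ± 5.27 in Alc (-0.83 ± 0.22, limma adjusted p = 0.010) and to 13.1 ± 2.44 in Alc UA (-1.19 ± 0.22, limma adjusted p = 8.1e-04). Between Alc UA and Alc it differed by -0.36 ± 0.22 (limma adjusted p = 0.83). Both calls against Ctrl held in each of the 9 other settings and the 15 fits without 1 library.

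Trem2, Gpnmb and Lgals3 were high in the same few libraries, drawn from all 3 groups. Trem2, a receptor for lipids, was 6.55, 0.91, 1.49, 0.63 and 0.40 FPKM in Ctrl, 0.80, 0.97, 0.98, 3.0 and 1.35 in Alc, and 0.97, 4.39, 0.41, 1.73 and 0.64 in Alc UA. Gpnmb, a glycoprotein of lipid-laden macrophages, was 5.81, 0.19, 0.41, 0.28 and 0.10 FPKM in Ctrl, 0.28, 0.23, 0.27, 1.48 and 0.43 in Alc, and 0.40, 13.4, 0.17, 1.28 and 0.10 in Alc UA. Lgals3, galectin-3, was 24.5, 3.04, 3.49, 4.12 and 1.15 FPKM in Ctrl, 3.68, 4.84, 3.24, 7.82 and 3.42 in Alc, and 3.26, 20.3, 6.48, 4.63 and 3.13 in Alc UA. Ctrl 1, Alc 4 and Alc UA 2 were the highest library of their group for all 3 genes. Ctrl 1 was so for 31 of all 34 genes and Alc 4 for 25, against 9 for Alc UA 2. Trem2 and Lgals3 did not pass in any comparison, and Gpnmb was not tested. Of 12 further lipid-associated genes tested, Cd36, a fatty acid receptor (1.27 ± 0.39, limma adjusted p = 0.022), rose and the fatty acid carrier Fabp5 (-1.25 ± 0.44, limma adjusted p = 0.037) fell in Alc against Ctrl, and 0 passed in Alc UA against Ctrl, where 33.3% and 42.6% of all genes were called. Hepatocytes and endothelial cells make several of these genes as well.

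Alc UA 3 stood apart most in Spic and Marco. Spic was 0.71, 1.16, 31.6, 1.27 and 1.18 FPKM in Alc UA 1 to 5, and between 0.13 and 3.12 in the 10 other libraries. Marco, a scavenger receptor for bacteria, was 7.97, 4.56, 139, 6.64 and 10.8 FPKM in Alc UA and between 1.66 and 17.1 elsewhere. Alc UA 3 stood 29.3 times above the mean of the other 4 Alc UA libraries for Spic and 18.5 times for Marco. Over all 18510 rows, Spic and Marco ranked 1 and 2 by how far Alc UA 3 lay above the next of the 15 libraries (2.99 and 2.95 on the log2(FPKM + 1) scale), which is a description of 1 mouse and has no replicate. Aif1 (7.59 times), Adgre1 (6.17), Fcer1g (5.10), Cd5l (4.17) and Spi1 (3.72) were high there too. These genes were also high in Ctrl 1, at 3.80, 3.12, 3.16, 3.02 and 4.19 times the mean of the other 4 controls. Spic and Marco were 3.15 and 0.652 times that mean in Ctrl 1. In Alc UA 3, Clec4f at 1.11 times, Cd163 at 1.16 and Msr1 at 1.02 were level with the rest of the group. Trem2 was 0.41 FPKM there against 0.64 to 4.39 in the other 4, and Gpnmb 0.17 against 0.10 to 13.4, both with Alc UA 2 as the highest. In all, 20 of the 34 genes were higher in Alc UA 3 than in any other Alc UA library, and 15 of them by a ratio over 2 to the mean of the rest.

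Genes outside the list that stood out in the same library, named after their values were seen, included other macrophage genes. Siglece was 17.7 FPKM in Alc UA 3 against 3.63 in the next of the 15 libraries, Lst1 38.0 against 9.96, Cd209f 4.62 against 0.19 and the cytokine Il10 3.20 against 0.25. Hmox1, which breaks down heme, was 60.9 FPKM in Alc UA 3 and 16.8 ± 6.27 in the other 4, and the iron exporter Slc40a1 62.1 and 31.7 ± 10.2. Markers of some other cells were higher in that library than in the rest of its group, and those of others lower or within its range. The sum of 9 B and plasma cell markers was 15.5 FPKM there and 3.26 to 5.16 in the other 4, with Cd79a at 5.49 against 0.788 ± 0.302. That of neutrophil markers was 24.1 against 10.5 to 20.2, and that of T and NK cell markers, at 11.96, lay within 4.68 to 13.9. The monocyte sum was 29.1 against 15.2 to 27.97, and the dendritic cell sum 164.5 against 117.4 to 150.7. The erythroid sum was 1037 against 350 to 544, the sinusoidal endothelial sum, at 91.6, lay within 86.6 to 112, and the stellate (132) and cholangiocyte (18.95) sums were the lowest of the 15 libraries. Their part in the macrophage values was not tested. Without Alc UA 3, Spic and Marco averaged 1.08 ± 0.251 and 7.5 ± 2.63 FPKM in Alc UA, against 1.42 ± 1.10 and 7.51 ± 5.99 in Ctrl.

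**Figure D5:**
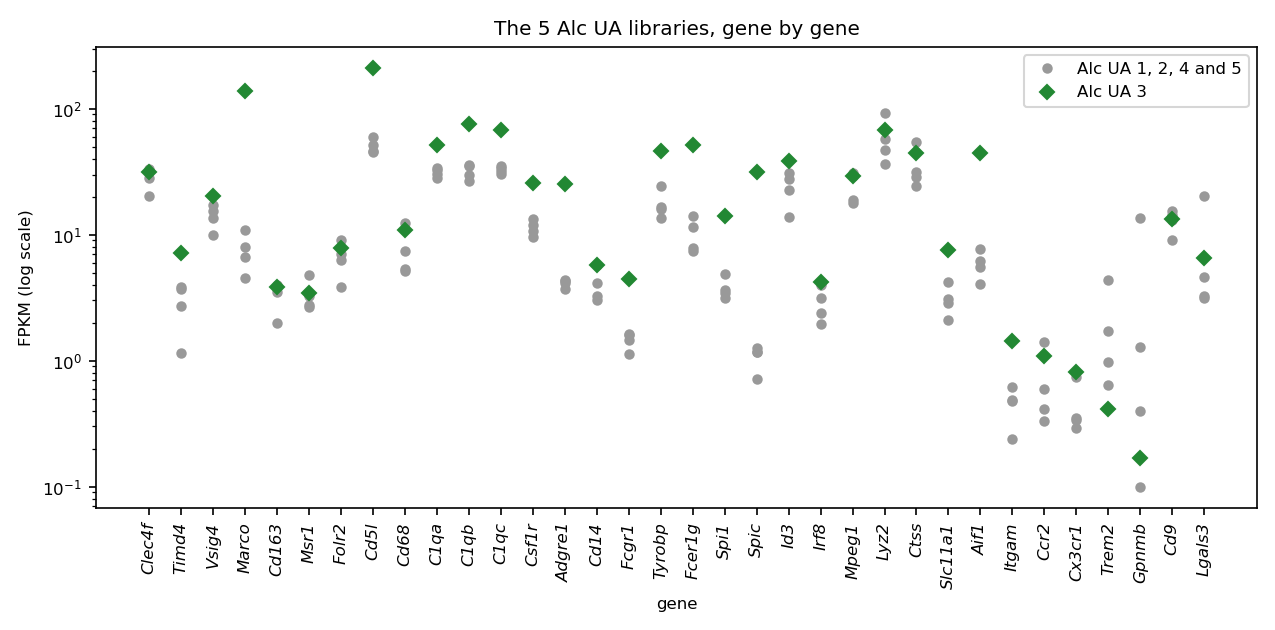
FPKM on a log scale of the 34 genes in the 5 Alc UA libraries, with Alc UA 3 as diamonds and the other 4 as circles. The diamonds of Marco, Spic, Aif1 and Adgre1 lie far above the circles of the same gene, that of Clec4f lies among them, and that of Trem2 lies below them.

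Of 17 further Kupffer cell genes, 2 rose and 4 fell in Alc against Ctrl, near the 33.3% of all genes called. The count was 1 higher and 3 lower in Alc UA against Ctrl, a smaller share than the 42.6% of all genes. Those that fell in both were the mannose receptor Mrc1 (-1.18 ± 0.23 and -1.38 ± 0.23), the transcription factor Maf (-0.88 ± 0.19 and -0.91 ± 0.19) and the NAD-consuming enzyme Cd38 (-0.87 ± 0.21 and -0.82 ± 0.21). Hpgd, which breaks down prostaglandins, rose in Alc (0.69 ± 0.20). Mrc1, Maf and Cd38 are not confined to macrophages in the liver, and Mrc1 is also made by sinusoidal endothelial cells. The median of the 17 was -0.12 in Alc and -0.07 in Alc UA, against -0.12 and -0.16 for all genes.

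Few of the signals that the niche sends to macrophages passed. Of 11 tested, 0 rose, and 1 fell in Alc and 2 in Alc UA against Ctrl, smaller shares than the 33.3% and 42.6% of all genes called. In Alc it was the Notch ligand Dll4 (-0.66 ± 0.19, limma adjusted p = 0.016), and in Alc UA Dll4 (-1.16 ± 0.19) and Dll1 (-0.75 ± 0.17) fell. The growth factor Csf1 differed by -0.45 ± 0.19 in Alc (limma adjusted p = 0.085). Of 11 tested cytokines and chemokines of macrophages 4 passed in Alc and 4 in Alc UA against Ctrl, near the 33.3% and 42.6% of all genes. Among them, Ccl9 (0.55 ± 0.16) and the interleukin-1 antagonist Il1rn (0.72 ± 0.23) rose in Alc against Ctrl, and the lymphocyte attractants Ccl5 (-1.55 ± 0.45) and Cxcl10 (-1.02 ± 0.36) fell. Ccl5 is also counted among the T and NK cell markers below. In Alc UA against Ctrl, Il1rn rose (0.87 ± 0.23), and Ccl5, Cxcl10 and Cxcl2 fell. Cxcl2 in Ctrl 1 lay 1.71 above the next of the 15 libraries on the log2(FPKM + 1) scale, the widest gap of that library. The part of Ctrl 1 in the fall of Cxcl2 was not tested. Tnf, Il6, Il12b and Nlrp3 did not reach the level for a test. In Alc UA against Alc, 0 genes of any of these lists passed in limma.

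The background for markers of other cells is that 22.8% of all genes fell in Alc and 32.1% in Alc UA against Ctrl. Of 4 tested T and NK cell markers 4 fell in Alc and 3 in Alc UA against Ctrl, and of 4 tested B and plasma cell markers 4 fell in both, with summed levels of 8.22 to 25.1 FPKM in Ctrl, 2.26 to 7.92 in Alc and 3.26 to 15.5 in Alc UA. Most genes of these lists were below the level for a test, and weak genes that are higher in Ctrl can pass it through that group. Of 6 erythroid markers tested, 5 fell and 1, Car1, rose in both. Of 3 tested dendritic cell markers, which share much of the macrophage program, 2 fell in Alc and 3 in Alc UA. Stellate cell markers mostly did not pass, with 0 of 11 rising and 1 falling in each comparison with Ctrl.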

How the data were processed

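Per the labels, a phenol-chloroform extraction of liver was followed by library preparation with MGISEQ protocols. The authors deposited FPKM values for 18510 gene symbols in a single table. The submitters' processing notes list StringTie, DESeq, RSEM 1.2.8, Bowtie2 2.2.5 and HISAT2 2.1.0, and do not say what each did. No source used here gives the genome build, the annotation or the strandedness of counting, and read numbers are unknown, so no counting error is attached to low values. Column names carry a letter for the group and a replicate number, which were matched to the sample titles.

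Values were analysed as log2(FPKM + 1) with limma 3.58.1 in R 4.3.3, 1 model over 3 groups of 5 libraries whose variance prior follows mean expression. The fit took the 10959 genes that reached 1 FPKM in 5 or more libraries, and p-values were adjusted by Benjamini-Hochberg at 0.05 within each comparison. The fit was tested on simulated data. The 34 genes and the further lists were chosen with earlier results of these data known. Values per library are printed for genes past the threshold, for those with the smallest p, and for a leading gene of each role. From each further list up to 3 genes with the smallest p in Alc against Ctrl were planned to be named. For several lists only genes that passed, or none, are named. Trem2, Gpnmb, Lgals3, Spic, Marco and genes that complete a count of 5 or fewer were chosen after their values were seen. Alternatives varied the pseudocount, filter, scaling, variance prior, library weights, libraries and replicate block. Values of some genes in the further lists are not reported here. Promoters came from the RefSeq table of GRCm38.p6. Python 3.11.15 with matplotlib 3.10.9 made the plots.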

Additional observations from a re-analysis of the deposited data

Results flagged for a closer look

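In each group of 5, the gap between the most extreme library and the next was divided by the range of the group, and results above the critical value of 0.71 are given here. Of 102 combinations of gene and group, 30 were above it. A chance rate of about 1 in 20 applies to independent values with a normal spread. These are FPKM of genes that largely moved together in a library, so the 30 cannot be judged against that rate. Alc UA 3 accounted for 12 of these and Ctrl 1 for 10, each as the highest library.

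In Alc UA 3 the FPKM values set apart were Marco 139.09, Cd5l 210.44, C1qa 51.54, C1qb 75.37, C1qc 67.13, Csf1r 25.68, Adgre1 25.44, Fcgr1 4.43, Fcer1g 51.66, Spi1 14.06, Spic 31.63 and Aif1 44.46. In Ctrl 1 they were Fcgr1 3.29, Spi1 12.94, Mpeg1 31.63, Lyz2 147.62, Ctss 87.43, Slc11a1 7.16, Ccr2 4.61, Trem2 6.55, Gpnmb 5.81 and Lgals3 24.48.

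Alc UA 2 was set apart as the highest library for Gpnmb (13.44 FPKM) and Lgals3 (20.31) and as the lowest for Cd163 (1.99). Alc 4 was the highest of its group for Fcer1g (16.37), Trem2 (3.0) and Gpnmb (1.48), and Alc 2 for Marco (16.31). Ctrl 5 was set apart as the lowest for Cd163 (0.63 FPKM, against 2.84 in the next control).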

How the results depend on the processing

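Id3 and Cd9 passed in both comparisons with Ctrl in each of 9 other settings, 15 fits without 1 library and 2 fits without several. No called value changed sign. The counts of the 31 genes called in Alc against Ctrl were 4 after quantile normalization, 4 when scaled by median-of-ratios size factors and 7 with library weights. In Alc UA against Ctrl they were 10, 8 and 7, and 2 to 8 with 1 library left out. Over all genes, library weights called 5870 in Alc against Ctrl, and median-of-ratios size factors gave 2012 higher and 1943 lower there and 2425 and 2362 in Alc UA against Ctrl. In Alc UA against Alc, limma called 0 genes in the fit of the 2 groups alone, 3 with library weights and 1 to 5 with 1 library left out, and 0 of the 31 in each of these. Without Ctrl 1, Ctrl 5 and Alc UA 3, a choice made after seeing the data, 5 of the 31 genes passed in Alc against Ctrl and 2 of all genes in Alc UA against Alc. The 5 were Cd5l and Mpeg1, higher, and Id3, Cd9 and Msr1, lower. In Alc UA against Ctrl that fit called Cd5l, Mpeg1, Id3 and Cd9, as the main fit did. With Ctrl 1 kept and the other 2 left out, Id3, Cd9 and Msr1 passed in both comparisons with Ctrl, and Cd5l and Mpeg1 in neither. Cd5l in Alc UA against Ctrl lost its call without a filter on low values (limma adjusted p = 0.073), in the fit of the 2 groups alone (0.077) and with a robust variance prior (0.054). Where not given with the result, the cause of a changed call was not tested.

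Replicate numbers are shared between groups but mark no pairing in the labels. Deviations of same-numbered libraries correlated between -0.30 and 0.29, and 3 of 15 libraries matched their own number best. With a replicate block, limma called 3554, 0 and 4534 genes in Alc against Ctrl, Alc UA against Alc and Alc UA against Ctrl, and 2, 0 and 3 of the 31, Cd5l being the one lost (limma adjusted p = 0.063). Without counts, depth sets no stated limit, and values under 1 FPKM, given to 2 decimals, are the least certain.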

Other observations

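Ctrl 1, the control with the highest levels of most of these genes, also held the highest summed levels of monocyte (59.7 FPKM), neutrophil (54.5), T and NK cell (55.1), B and plasma cell (25.15) and sinusoidal endothelial markers (536) of the 15 libraries. Its Alb level was 16833 FPKM, the lowest of the controls. Ctrl 5 had the lowest monocyte sum of the 15, at 9.15 FPKM.

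Further genes in which Alc UA 3 lay far above the next of the 15 libraries were Tmc3 (5.92 against 0.45 FPKM), Pcolce2 (6.61 against 1.03), Cd300e (6.09 against 1.32) and Clec4n (16.15 against 5.47). In all, 32 rows lay more than 1 above the next library there on the log2(FPKM + 1) scale, 5 of them among the 34 macrophage genes, against 28 rows in Ctrl 1 and 10 or fewer in each other library. These genes were picked after their values were seen, and the single library has no replicate.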
